A study of Mus musculus with 8 samples.

Results

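RNA levels of 10 Sox transcription factor genes were examined in ventricular heart tissue of mouse embryos at embryonic day 11.5, in 4 libraries from conditional knockout embryos (cKO) and 4 from control embryos. The 10 genes are Sox3, Sox4, Sox11, Sox12, Sox5, Sox6, Sox9, Sox7, Sox17 and Sox18, found by symbol on the primary chromosomes among 52778 rows of the deposited table. Sox3 was selected on its measured TPM difference between these same cKO and control libraries, where it was lower in cKO, so that difference is given as a description with no test. The other 9 were chosen for their roles in the cell lineages of the embryonic heart. The remaining 10 Sox genes of the mouse, from Sry to Sox30, are described as the rest of the family. The cKO embryos carried floxed alleles of Rps19bp1 (Rps19bp1 fl/fl) and 1 copy of the Xmlc2-Cre transgene (Xmlc2-Cre +/−), which acts in cardiomyocytes, so other cells of the ventricle keep the gene. The labels call the other group control and do not give its alleles. They also state C57BL/6 WT as the genotype of all 8 libraries, and the extraction text names cortical neurons, so tissue and genotype were checked on marker genes. Nothing in the labels says whether 1 library stands for 1 embryo or a pool.

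Sox proteins bind DNA through a high mobility group (HMG) box, which bends the DNA at a short AT-rich site, and they act together with partner factors. The family is divided into lettered groups by the sequence of that box. SoxB1 proteins such as Sox3 are best known for keeping neural progenitors undifferentiated, and Sox3 is X-linked. SoxC proteins (Sox4, Sox11, Sox12) act in embryonic progenitors, and Sox4 and Sox11 are needed for formation of the outflow tract. SoxD proteins (Sox5, Sox6) lack an activation domain of their own and work beside the SoxE protein Sox9 in cartilage, while Sox9 also acts in the mesenchyme of the heart valve cushions. SoxF proteins (Sox7, Sox17, Sox18) act in endothelial cells.

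A short stretch of the HMG box was compared between the 10 genes. In each gene the 9 codons below encode the same residues. The lines give the coding strand, 5′ to 3′, from GENCODE M21 transcripts (GRCm38), and capitals mark bases that differ from Sox3.
Sox3: cgacccatgaacgcgttcatggtgtgg
Sox4: cgGcccatgaacgcCttTatggtgtgg
Sox11: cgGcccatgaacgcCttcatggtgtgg
Sox12: cgGccGatgaacgcgttcatggtgtgg
Sox5: cgTccAatgaaTgcCttcatggtgtgg
Sox6: cgaccAatgaaTgcgttcatggtTtgg
Sox9: cgacccatgaacgcCttcatggtgtgg
Sox7: cgGcccatgaaTgcCttcatggtgtgg
Sox17: cgGccGatgaacgcCttTatggtgtgg
Sox18: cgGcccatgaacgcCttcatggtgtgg
In Sox3 this stretch lies at chrX:60892969-60892995 on the minus strand, in the coding part of its only exon. The other 9 genes differed from it at 1 to 4 of the 27 bases. These bases do not sort the genes by group. Sox9 differed at 1 base, and Sox11 of SoxC and Sox18 of SoxF had the same bases. Over a window of 237 bases that starts 4 codons before the stretch, the SoxC genes shared 69.2% to 70.5% of bases with Sox3, Sox9 shared 69.2%, the SoxF genes 65.8% to 66.2%, and Sox5 and Sox6 61.6% and 60.3%. The nearest relatives of Sox3 were outside the 10, with 89.0% for Sox1, 88.2% for Sox21 and 87.8% for Sox2. The longest run of bases that the Sox3 transcript shared exactly with another Sox transcript was 45, with Sox1, followed by 32 with Sox2. Reads inside such a run cannot be assigned to 1 gene. Sox1 reached at most 0.0733 TPM in any library and Sox2 at most 0.822 TPM. Sox3, Sox4, Sox11 and Sox12 each have 1 exon, while the longest coding transcripts of Sox5 and Sox6 have 15 and 16 exons.

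Values are TPM, transcript abundances scaled to transcript length and to a fixed total per library, so levels can be compared between genes. Depth per library is unknown from this unit, and the spread stated is that between libraries. Between 15336 and 15752 rows per library reached 1 TPM, and mitochondrial transcripts took 13.2% to 16.2% of TPM in cKO and 11.4% to 12.2% in control. The targeted gene Rps19bp1 stood at 11.8 to 19.2 TPM in cKO and 34.7 to 44.2 TPM in control, with no overlap. Summed TPM of 19 cardiomyocyte markers lay between 46283 and 52261 in the 8 libraries, while 12 of 16 neural progenitor and neuron markers had a mean under 1 TPM, Pax6, Neurog1, Neurog2 and Olig2 among them. The other 4 of these neural markers were present, with means of 11.2 TPM for Msi1, 10.2 TPM for Dll1, 8.78 TPM for Tubb3 and 1.47 TPM for Elavl4.

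The 10 Sox genes differed widely in level. In control libraries Sox12 (112 ± 6.04 TPM, SD, n = 4) and Sox4 (102 ± 4.24 TPM) were highest, and their ranges overlapped. After a wide step came Sox18, Sox7, Sox3, Sox11 and Sox9, with means from 27.6 down to 14.5 TPM, each overlapping the next in range. Sox6 (6.67 ± 0.682 TPM) stood apart from the genes above and below it, and Sox5 (2.78 ± 0.590 TPM) and Sox17 (2.54 ± 0.556 TPM) were lowest and overlapped each other. In cKO Sox4 stood above Sox12, with overlapping ranges, and Sox6, Sox5 and Sox17 were again the lowest. Sox3 stood above Sox11 and Sox9 by mean in control and below both in cKO, with no overlap in range there, and in cKO it overlapped Sox6, from which it was separate in control. The 3 SoxC genes together made up 70.6% of the summed TPM of the 10 genes in control and 69.5% in cKO, and Sox3 made up 5.99% and 3.06%.

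**Figure D1:**
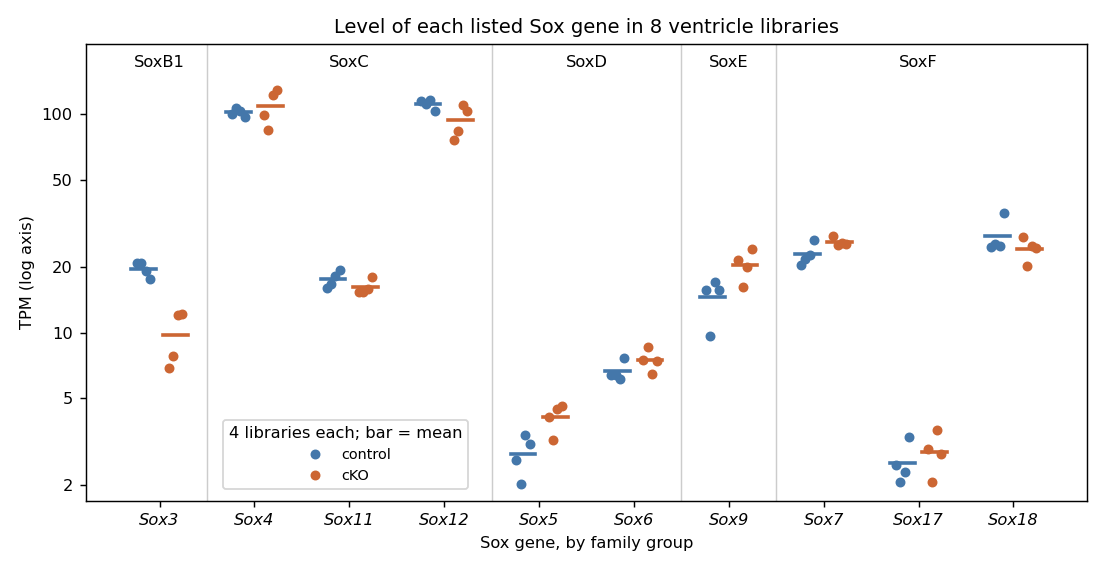
TPM (log axis) of each listed Sox gene in 4 control and 4 cKO libraries, with points for libraries and bars for group means, arranged by family group. Sox3, which was picked for its fall in these libraries, is the gene whose groups do not overlap. Its control libraries lie from 17.7 to 20.9 TPM and its cKO libraries from 6.87 to 12.2 TPM. Of all 15541 tested rows, 10.3% had every cKO library below every control library.

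Sox3, the only SoxB1 gene above 1 TPM in this tissue, stood at 20.8, 20.9, 19.1 and 17.7 TPM in control libraries 1 to 4 and at 6.87, 7.85, 12.1 and 12.2 TPM in cKO libraries 1 to 4. All 4 cKO libraries were below all 4 control libraries, as in 10.3% of all 15541 tested rows. Within cKO, libraries 1 and 2 were lower than 3 and 4. The means were 19.6 ± 1.54 TPM in control and 9.75 ± 2.79 TPM in cKO (SD, n = 4), so cKO held 49.7% of the control level. The fitted log2 change of TPM + 1 was -0.98 with a standard error of 0.162, and it ranged from -1.09 to -0.76 over 18 alternative settings. Sox3 (chrX:60891366-60893430, minus strand, GRCm38) overlaps no other row of the table. In bulk tissue, fewer cells that express a gene and less RNA per cell cannot be told apart.

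Sox3 is best known in neural progenitors, and other genes of these cells were measured beside it. The other SoxB genes Sox1, Sox2, Sox14 and Sox21 had mean levels over the 8 libraries of 0.0106, 0.388, 0 and 0.0163 TPM. The 4 tested neural progenitor and neuron markers were Tubb3, Elavl4, Dll1 and Msi1, with log2 changes of 0.43, 0.15, -0.03 and -0.01, and 0 passed the threshold. The summed level of all 16 was 31.6 to 36.7 TPM in cKO and 25.8 to 37.2 TPM in control. Of 17 markers of foregut and pharyngeal epithelium, 16 had a mean under 1 TPM, and Shh, Nkx2-1, Pax1 and Gcm2 were at 0 in every library. The exception was Krt19 (log2 change 0.11, and -0.04 without control replicate 1), which the epicardium also expresses. The summed level of these 17 was 102 to 128 TPM in cKO and 75.8 to 124 TPM in control.

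Towards higher coordinates on the X chromosome, the nearest tested gene to Sox3 was the predicted gene Gm7327, at a distance of 891930 bp. Gm7327 stood at 6.78 ± 2.25 TPM in control and 6.41 ± 2.36 TPM in cKO (SD, n = 4), and the groups overlapped. It changed by -0.08 on the log2 scale and did not pass (limma adjusted p = 0.873).

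The SoxC genes Sox12 and Sox4 were the most abundant of the 10, while Sox11, of the same group, stood far lower. None of the 3 passed the threshold, a limma p adjusted by the Benjamini-Hochberg method of less than 0.05 over all tested rows. Sox12 stood at 116, 112, 116 and 103 TPM in control libraries 1 to 4 and at 76.1, 84.2, 111 and 104 TPM in cKO libraries 1 to 4. The cKO libraries 1 and 2 were below every control library, while 3 and 4 lay within the control range. The log2 change of Sox12 was -0.27 (95% interval -0.51 to -0.03, limma adjusted p = 0.171, exact permutation p = 0.0857), and without cKO replicate 1 it was -0.17. Sox4 stood at 100.8, 107, 104 and 96.9 TPM in control and at 99.1, 85.01, 123 and 129 TPM in cKO. The cKO values spread on both sides of the control range, with an SD of 20.5 TPM against 4.24 TPM in control. The log2 change of Sox4 was 0.07 (95% interval -0.18 to 0.33, limma adjusted p = 0.739), and without cKO replicate 4 it was -0.0128. Sox11 stood at 16.03 to 19.3 TPM in control and 15.3 to 18.1 TPM in cKO, with a log2 change of -0.11 (95% interval -0.28 to 0.06, limma adjusted p = 0.412). Without control replicate 4 the log2 change of Sox11 was -0.07.

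Within the cKO group, libraries 1 and 2 held the 2 lowest values of Sox3, Sox12, Sox4 and Sox11 alike. After the group means were removed, the correlation of log2(TPM + 1) with Sox3 over the 8 libraries was 0.96 for Sox12, 0.86 for Sox4 and 0.27 for Sox11, given as a description. For the other tested Sox genes it lay between -0.59 (Sox6) and 0.23 (Sox5). These points share libraries and their scaling. The same 2 cKO libraries also had the lowest mitochondrial shares of the group, 13.2% and 13.2% against 16.2% and 14.1%, and the fewest rows at 1 TPM or more, 15542 and 15451 against 15752 and 15595. The part of these features in the Sox values was not tested.

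**Figure D2:**
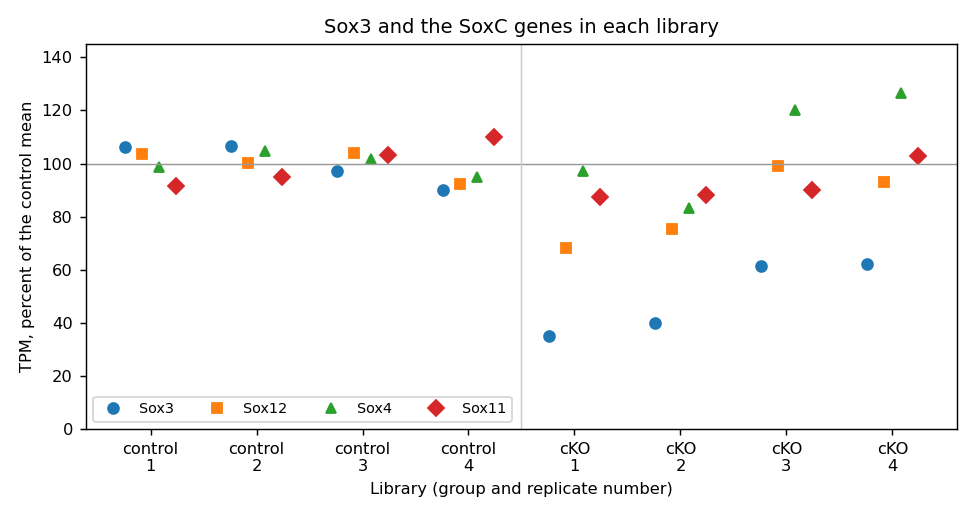
TPM of Sox3 and the 3 SoxC genes in each library as a percentage of that gene's control mean. Sox3 lies at 35.0% and 39.97% in cKO libraries 1 and 2 and at 61.5% and 62.2% in cKO libraries 3 and 4, and Sox12 and Sox4 are also lower in cKO libraries 1 and 2 than in 3 and 4.

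Sox9 and Sox5, partners in cartilage, had the highest fitted log2 changes of the 10 genes. Sox9 (chr11:112782210-112787757) stood at 15.6, 9.71, 17.1 and 15.7 TPM in control libraries 1 to 4 and at 21.4, 16.2, 20.1 and 24.2 TPM in cKO. In 3 of 4 cKO libraries Sox9 was above every control library, and control library 2 was the lowest. Its log2 change was 0.48 (95% interval 0.11 to 0.85, limma adjusted p = 0.116, exact permutation p = 0.0571), and without control replicate 2 it was 0.31 (limma adjusted p = 0.175). Sox5 (chr6:143828425-144782287) stood at 2.62, 2.04, 3.39 and 3.09 TPM in control and at 4.13, 3.22, 4.46 and 4.60 TPM in cKO. Again 3 of 4 cKO libraries were above every control library. Its log2 change was 0.44 (95% interval 0.13 to 0.74, limma adjusted p = 0.0869, exact permutation p = 0.0571). Both changes missed the threshold, and both intervals lie above 0 before adjustment for the number of rows tested.

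Sox6, the second SoxD member here, silences embryonic globin genes in red cells. It stood at 6.41, 6.43, 6.17 and 7.68 TPM in control and at 7.51, 8.64, 6.47 and 7.46 TPM in cKO, with overlapping groups. Its log2 change was 0.15 (95% interval -0.06 to 0.36, limma adjusted p = 0.382), and without cKO replicate 2 it was 0.09. The rows Sox6os, at 0.491 to 1.79 TPM, and Gm51455, at 0.326 to 0.649 TPM, lie on the opposite strand of Sox6, so their reads and those of Sox6 cannot be told apart there if counting ignored strand. The rows on the opposite strand of Sox5 reached at most 0.0734 TPM. Of 13 erythroid markers, among them globin genes, 0 passed and all 13 were lower in cKO by fitted value, with a median log2 change of -0.35. Without control replicate 4, whose globin share was the largest, the median was -0.02 and 7 of 13 were lower, while the median was -0.62 without control replicate 1 and, when cKO replicate 3 was left out, -0.21. The summed erythroid level was 2114 to 4489 TPM in cKO and 2332 to 8448 TPM in control.

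The SoxF genes of the endothelium overlapped between groups and did not pass. Sox7 stood at 20.4, 21.7, 22.7 and 26.5 TPM in control and at 27.6, 25.3, 25.7 and 25.4 TPM in cKO, with a log2 change of 0.19 (95% interval 0.02 to 0.36, limma adjusted p = 0.174). Sox18 stood at 24.6, 25.5, 24.97 and 35.2 TPM in control and at 27.4, 20.2, 25.05 and 24.3 TPM in cKO, with a log2 change of -0.17 (95% interval -0.44 to 0.10, limma adjusted p = 0.439). Sox18 was highest in control library 4, and without that library its log2 change was -0.05. Sox17, the least abundant, stood at 2.07 to 3.34 TPM in control and 2.08 to 3.57 TPM in cKO, with a log2 change of 0.11 (95% interval -0.21 to 0.44, limma adjusted p = 0.685). Without cKO replicate 3 the log2 change of Sox17 was 0.03. Together the 3 SoxF genes summed to 52.95 ± 8.16 TPM in control and 53.1 ± 4.28 TPM in cKO (SD, n = 4).

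Across the 15541 rows with a mean of at least 1 TPM, 6.40% passed the threshold, 2.16% higher and 4.23% lower in cKO. All 10 listed Sox genes were tested. Of the 9 other than Sox3, 0 passed with limma, where 4 (Sox5, Sox9, Sox12 and Sox7) had an unadjusted p under 0.05, as did 23.7% of all tested rows. Among the 9, 6 were higher and 3 lower by fitted value, with a median log2 change of 0.11 against -0.02 for all tested rows. Leaving out cKO replicate 3 gave a median of 0.03, leaving out cKO replicate 2 gave 0.19, and leaving out control replicate 4 gave 0.21. The groups did not overlap in 15.6% of tested rows, with cKO above control in 5.33% and below it in 10.3%, and they overlapped in each of the 9 genes. With 4 libraries a group, the exact permutation test of a single gene cannot give less than 0.0286.

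**Figure D3:**
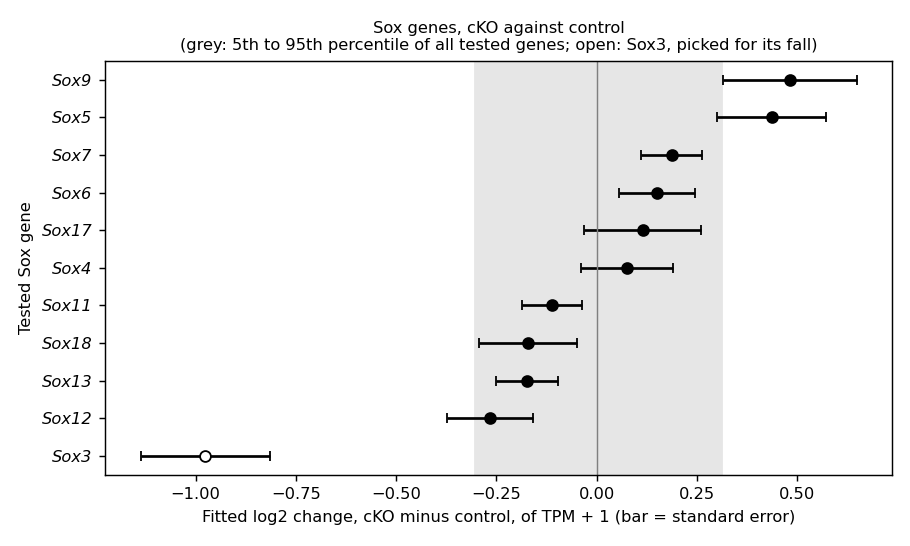
Fitted log2 change (cKO minus control, of TPM + 1) of the 11 Sox genes tested, with bars of 1 standard error. Sox3, drawn open because it was picked for its fall, lies at -0.98, and Sox9 and Sox5 lie at 0.48 and 0.44, outside the grey band that holds the 5th to 95th percentile of all tested rows (-0.30 to 0.31).

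Among the rest of the family, Sox13 alone had a mean of at least 1 TPM. Sox13, the third SoxD gene, stood at 14.9, 11.4, 12.4 and 13.2 TPM in control and at 11.4, 11.4, 11.1 and 11.5 TPM in cKO. Its control libraries spread more widely than its cKO libraries, and 3 of 4 cKO libraries were below every control library. The margin was small, with cKO replicates 1 and 2 at 11.413 and 11.404 TPM against 11.425 TPM in control replicate 2. Its log2 change was -0.17 (95% interval -0.34 to -0.00235, limma adjusted p = 0.205). The SoxE gene Sox8 lay just under the limit at 0.994 TPM over the 8 libraries, with 0.789 ± 0.117 TPM in control and 1.20 ± 0.361 TPM in cKO (SD, n = 4), and was not tested. Sox10, the SoxE gene of neural crest and Schwann cells, had a mean of 0.310 TPM, Sox30 of 0.729 TPM and Sox15, whose row overlaps Mpdu1 on the other strand, of 0.104 TPM. The male-determining gene Sry and Sox14 were listed at 0 in all 8 libraries.

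Genes tied to Sox proteins as partners or targets were then counted. Of 20 vascular genes linked to SoxF factors, 1 passed as higher and 1 as lower, against 2.16% and 4.23% of all tested rows. The median log2 change of the 20 was -0.02, and it lay between -0.05 and 0.02 over the alternatives. The gap junction gene Gja5, which both arterial endothelium and trabecular cardiomyocytes express, fell from 158 ± 15.4 TPM to 97.5 ± 11.1 TPM (SD, n = 4), or -0.69 on the log2 scale with a limma adjusted p of 0.00308. The arterial gap junction gene Gja4 rose from 43.3 ± 2.43 TPM to 51.7 ± 3.76 TPM (SD, n = 4), or 0.25 on the log2 scale with a limma adjusted p of 0.0451. The call of Gja4 was lost under 10 of 18 alternatives, among them leaving out any library other than cKO replicate 4. Gata2 (log2 change 0.20, limma adjusted p = 0.156) did not pass.

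Of 17 cartilage and matrix genes linked to SoxD and SoxE factors, 11 were tested and 0 passed with limma. Of these 11, 4 had an unadjusted p under 0.05, as did 23.7% of all tested rows. Their median log2 change was 0.30, with 8 higher and 3 lower by fitted value, and over the alternatives this median ranged from 0.15, without control replicate 2, to 0.39. Comp (log2 change 0.41), Col9a2 (0.30) and Ccn2 (0.41) had the smallest p, with limma adjusted p from 0.139 to 0.164. The summed level of the 17 genes was 377.5 to 431 TPM in cKO and 311 to 376.0 TPM in control, so the sums nearly touched. Each of the 11 tested genes overlapped between the groups, while 15.6% of all tested rows did not. Of 4 SoxC target genes 3 were tested and 0 passed, while 1 had an unadjusted p under 0.05. These were the histone methyltransferase gene Ezh2 (log2 change -0.20, limma adjusted p = 0.0577), Tubb3 (0.43) and Tead2 (-0.08). Of 10 Wnt pathway genes whose products meet Sox proteins or report on the pathway, 7 were tested and 0 passed, with 0 at an unadjusted p under 0.05. Axin2 (0.30), Lef1 (-0.24) and Tcf7l1 (0.09) had the smallest p, and the median of these 7 was -0.02, between -0.08 and 0.05 over the alternatives.

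Markers of the cells in which Sox genes are usually found were counted in the same libraries. Over all tested rows, 2.16% passed as higher and 4.23% as lower in cKO. Of 14 cushion mesenchyme markers, 4 rose and 0 fell, 12 were higher and 2 lower by fitted value, the median log2 change was 0.40, and the 3 with the smallest p were Col3a1 (0.40), Col1a2 (0.47) and Dcn (0.52). Prrx2 of the same list was lower in all 4 cKO libraries than in every control library (116.6 ± 8.59 TPM in control, 86.1 ± 16.2 TPM in cKO, SD, n = 4). Its log2 change was -0.45 and did not pass (limma adjusted p = 0.0515), and 1 cushion marker passed as lower under 3 of 18 alternatives. The summed level of the list was 1339 to 1473 TPM in cKO and 1038 to 1212 TPM in control. Of 10 tested epicardial markers 6 rose and 0 fell, led by Tcf21 (0.52), Tbx18 (0.31) and Gpm6a (0.42), with a summed level of 382 to 485 TPM in cKO and 311 to 349 TPM in control. Without control replicate 1, 2 epicardial markers passed, and 3 passed in turn without control replicates 2 and 4 and cKO replicates 1 and 3. No marker of either list was at 0 in every library, though the epicardial marker Dmkn was at 0 in control replicates 2 and 3. Their part in the values of Sox9 and Sox5 was not tested.

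For the SoxF genes, 0 of 18 endothelial and endocardial markers passed with limma. Under 3 of 18 alternatives, 1 or 2 of them passed as higher. An unadjusted p under 0.05 was found for 6, as for 23.7% of all tested rows. By fitted value 15 were higher in cKO, as were 44.2% of all tested rows. Npr3 (0.25), Tek (0.19) and Erg (0.16) had the smallest p, and the median log2 change of the list was 0.11. Its summed level was 1563 to 1802 TPM in cKO and 1507 to 1646 TPM in control. Of 5 tested neural crest and Schwann precursor markers 0 passed, with 0 at an unadjusted p under 0.05 and a median of 0.23, or 0.03 with no filter on low values. These included Erbb3 (0.23), Ngfr (0.39) and Crabp1 (0.30). Foxd3 was under 0.1 TPM on average, and the summed level of the list was 118 to 147 TPM in cKO and 115 to 134 TPM in control. Most of that sum was Ednrb, with a mean of 107 TPM over the 8 libraries and a log2 change of -0.02. The sum therefore mainly follows Ednrb and says little about the other markers of the list. Of 10 tested macrophage markers 0 passed, with 1 at an unadjusted p under 0.05 and a median of 0.34, and Csf1r (0.47), C1qb (0.57) and Mrc1 (0.39) had the smallest p. Without cKO replicate 4, 3 macrophage markers passed as higher and the median was 0.57. The median was 0.17 with a pseudocount of 5 and lay between 0.21 and 0.57 when single libraries were left out. Hbb-bh1 (-0.60) and Epb42 (-0.29) were among the 3 erythroid markers with the smallest p, and their list had 0 at an unadjusted p under 0.05.

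Markers of the heart muscle compartments were counted beside Sox3, where 4.23% of all tested rows passed as lower and 2.16% as higher in cKO. Of 19 cardiomyocyte markers 1 fell and 0 rose past the threshold, with a median log2 change of -0.05. By fitted value 14 were lower and 5 higher, while 55.8% of all tested rows were lower. An unadjusted p under 0.05 was found for 5 of the 19, as for 23.7% of all tested rows. The summed level of the 19 was 46283 to 48734 TPM in cKO and 47727 to 52261 TPM in control. The cardiac transcription factor gene Nkx2-5 fell from 282 ± 27.7 TPM to 205 ± 37.7 TPM (SD, n = 4), or -0.48 on the log2 scale with a limma adjusted p of 0.0453. That call was lost under 13 of 18 alternatives, among them leaving out any library other than cKO replicate 4. Mef2c (-0.20) and Des (-0.22) did not pass. Of 8 tested pacemaker and sinus venosus markers 2 fell and 0 rose, with a median of 0.06, which changed sign to -0.16 without control replicate 2 and to -0.01 without control replicate 1 and with array weights. The pacemaker channel gene Hcn4 fell from 27.99 ± 1.97 TPM to 15.9 ± 2.36 TPM (SD, n = 4), or -0.79 on the log2 scale with a limma adjusted p of 0.00279, and Cpne5 fell by 0.45 on the log2 scale, while Cacna1d (-0.36) did not pass. The other 5 tested, among them the transcription factor gene Tbx3 (0.08), were higher by fitted value and did not pass, and 4, among them Shox2 and Isl1, had a mean under 1 TPM. In turn without control replicates 1, 3 and 4 and cKO replicates 1 and 2, 1 pacemaker marker passed as lower. Of 10 tested atrial markers, Tbx5 (-0.24) and Angpt1 (-0.40) fell, 0 rose and Nppa (0.44) did not pass, with a median of -0.08. Sln of the same list had a mean of 0.733 TPM over the 8 libraries and was not tested. Myl4, Nppa and Myl7 had means of 5132, 5060 and 3176 TPM in this ventricular tissue. The list therefore cannot be read as a measure of atrial cells. Neither atrial call was kept after quantile normalization, median-ratio scaling or rescaling without mitochondrial and globin genes, and 0 to 1 atrial markers passed when single libraries were left out. The part of these markers in the level of Sox3 was not tested.

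**Figure D4:**
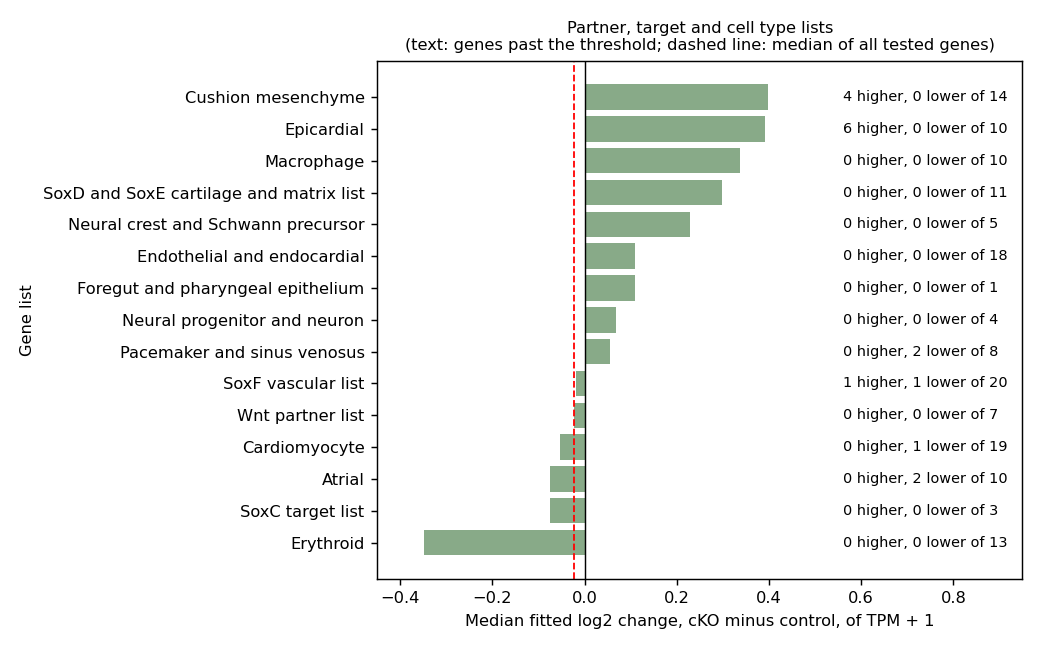
Median fitted log2 change (cKO minus control, of TPM + 1) of the tested genes of each partner, target and cell type list, with the number past the threshold in each direction. The cushion mesenchyme and epicardial lists lie highest, at 0.40 and 0.39, and the erythroid list lowest, at -0.35 (-0.02 without control replicate 4), and the dashed line at -0.02 is the median of all tested rows.

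The genes whose levels followed Sox3 most closely were found by the Pearson correlation of log2(TPM + 1) over the 8 libraries, as a description of these libraries. The 5 most alike among named genes were Hnrnpu (0.99), Inafm2 (0.99), Acbd6 (0.99), Rtn4rl1 (0.98) and Sap30 (0.98). Hnrnpu encodes a nuclear RNA-binding protein and Sap30 a subunit of a histone deacetylase complex. Inafm2 stood at 44.9, 45.2, 41.4 and 40.4 TPM in control and at 22.1, 26.9, 31.5 and 33.6 TPM in cKO, so its cKO libraries 1 and 2 were again the lowest. After the group means were removed, the correlations of these 5 with Sox3 lay between 0.94 and 0.97. The 3 genes most opposed were Tmed3, Tmem205 and Tsc22d1, with correlations from -0.984 to -0.981. The 8 genes were chosen as the extremes of 15541 rows, and all of them share with Sox3 the difference between the groups. The correlations after removal of the group means come from the libraries on which the genes were chosen, so they are no separate evidence.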

How the data were processed

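RNA sequencing was performed on 4 cKO and 4 control libraries, grouped by the sample titles. The authors deposited 1 table of TPM values, with 52778 rows and 1 column per library. The submitters' processing notes name FastQC, Trim Galore 0.6.7, HISAT2 2.2.1, StringTie 2.2.1, featureCounts, DESeq2 and build GRCm38, without roles. The annotation and the use of strand are not given in the sources used here. The series text names a stranded mRNA kit and the extraction text depletion of ribosomal RNA. All 8 libraries carry batch label 1. The labels speak of biological replicates, and p-values measure the spread between these libraries.

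TPM was transformed to log2(TPM + 1), and groups were compared with limma 3.58.1 under R 4.3.3 (lmFit, eBayes with a trend, group as the only term, two-sided). The 15541 rows with a mean of at least 1 TPM were tested, with Benjamini-Hochberg adjustment over all of them and a threshold of 0.05. Fold changes on this scale understate those of low genes. Exact two-sided permutation tests used the 70 assignments. On simulated data for this comparison (15541 genes, 200 changed), the recovered share was 82% at a log2 change of 0.75 and 97% at 1.5. Smaller changes were not simulated. The fitted changes of the 9 listed Sox genes other than Sox3 ran from -0.27 to 0.48, so the share recovered at their size is not known. Sequences came from GENCODE M21. Figures were drawn with matplotlib 3.10.9. The members, lists and alternatives were chosen with earlier results of these data known. Genes were named by rule: the 10 members, other Sox genes of at least 1 TPM, the 3 members of each list with the smallest p, the neighbours of Sox3, the 5 genes most like it and the 3 most opposed (predicted genes left out), and Rps19bp1. Msi1, Prrx2, Tbx3, Shox2, Isl1, Sln, Myl4, Myl7 and Ednrb were named after their values were seen. So were rows overlapping Sox genes, markers at or near 0 and Sox genes under 1 TPM. Some genes that the rule names are not reported here. Alternatives were other pseudocounts, filters and scalings, eBayes without a trend, array weights, the replicate block and leaving out each library.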

Additional observations from a re-analysis of the deposited data

Results flagged for a closer look

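In 22 groups of 4 libraries (11 tested Sox genes in cKO and in control), 3 held a library far from the other 3 by Dixon's test at the 95% level, and chance alone marks about 1 group in 20. Sox18 stood at 35.2 TPM in control replicate 4, against 24.6 to 25.5 TPM in the other control libraries. Sox6 stood at 7.68 TPM in the same library, against 6.17 to 6.43 TPM in the others, and control replicate 4 also had the largest globin share of the 8 libraries (0.838%, against 0.209% to 0.445%). Sox7 stood at 27.6 TPM in cKO replicate 1, against 25.3 to 25.7 TPM in the other cKO libraries.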

How the results depend on the processing

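Each result was recomputed under 18 alternatives. Among the other 9 listed genes only Sox4 changed direction, to -0.0128 without cKO replicate 4, and its values with single libraries left out ran from -0.0128 to 0.19. Of these 9, 0 passed under every alternative except the replicate block, where 1, Sox9, passed as higher (log2 change 0.48, limma adjusted p = 0.0383, the lowest of its values, which reached 0.293). The labels do not state that replicate numbers pair libraries, and deviations of same-numbered libraries correlated at -0.01, 0.07, 0.06 and -0.09. Over all tested rows 994 passed, 336 higher and 658 lower. With no filter on low values 347 passed (140 higher, 207 lower), with the replicate block 420 (179 higher, 241 lower) and with eBayes without a trend 609 (371 lower). Leaving out single libraries gave 390 to 938, with 152 to 341 higher and 229 to 597 lower. Quantile normalization gave 380 lower calls, median-ratio scaling 419, and rescaling that left out mitochondrial and globin genes 396. The share of calls that were higher was 33.8% on the deposited scale and 50.2%, 47.8% and 49.5% under these 3 scalings. The cause of these differences was not tested. Sox5 and Sox17 could not be tested with a mean TPM of at least 5. TPM keeps no depth, so no detection limit can be given for Sox genes near 0.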
